A study of Mus musculus with 45 samples.

Results

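The genes Apoe, Apob, Apom, Apoa1, Rbp4 and Ttr encode apolipoproteins and blood carrier proteins that the visceral endoderm is known to make. They were chosen by gene symbol, and 6 of the 15997 genes in the 3 deposited tables carried these symbols. The E5.25 table held 5 of them among 10176 genes, with no row for Rbp4. The E5.5 table held all 6 among 13060 genes, and the E5.75 table all 6 among 13618.

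Visceral endoderm is the outer epithelium of the early mouse egg cylinder. Before a placenta is in place it takes up maternal nutrients and passes lipids and vitamins on to the tissues beneath it, packed in lipoproteins or bound to carrier proteins. Apolipoprotein B is the structural protein of the lipid particles secreted by endoderm and liver, apolipoprotein E is the ligand that lipoprotein receptors recognise, apolipoprotein A-I is the main protein of high-density lipoprotein, and apolipoprotein M carries sphingosine-1-phosphate on that particle. Retinol-binding protein 4 (Rbp4) carries vitamin A in blood, and transthyretin (Ttr) carries thyroid hormone and holds on to retinol-binding protein.

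The study profiled numbered cryosections of untreated mouse embryos at E5.25, at E5.5 and at E5.75 (days after mating), cut out with a laser and sequenced with Smart-seq2, a method that copies whole transcripts from a few cells. The labels list 45 samples and no strain, genotype or sex: 7 E5.25 sections, 17 parts of E5.5 sections, and at E5.75 19 sections and 2 pieces that the labels of sections 6 and 7 call VE, which usually stands for visceral endoderm. The tables give 7, 9 and 17 section numbers and both VE libraries; E5.75 sections 9 and 13 were not analysed here. The labels speak of a single embryo per stage, so p-values compare sections of that embryo, and they leave the end of the axis at which section 1 lies unsaid. The embryos had been taken out of the decidua, the surrounding maternal tissue, before freezing.

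Levels below are log2(FPKM + 1), where FPKM is fragments per kilobase of transcript, scaled to the library's total, and differences are on that log2 scale. A gene "passed" at a Benjamini-Hochberg adjusted p below 0.05 in limma, over all genes that reached an FPKM of 1 in at least 2 of the libraries compared. Libraries differed in how much they detected. Genes at an FPKM of 1 or more numbered 2046 to 6461 at E5.25, 2288 to 6467 at E5.5, 3211 to 8217 in E5.75 sections, and only 1496 and 2147 in the VE libraries (section 6, then section 7). The ribosomal RNA precursor Rn45s took 62.2% and 48.8% of the summed FPKM in the VE libraries, 69.8% in E5.5 section 1 and 52.8% in E5.75 section 1. The glycolytic gene Gapdh, which most cells express, had a level of 0 in E5.5 section 1, so a level of 0 is given only as a listing of 0. In such pieces of tissue, fewer cells of a type and less RNA per cell cannot be told apart.

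The VE label was first checked against visceral endoderm markers. Of 10 such markers in the E5.75 table, 3 were above 0 in the VE library of section 6 and 4 in that of section 7. In the sections 0 to 10 were above 0, with 8 each in the other libraries of sections 6 and 7. Their summed FPKM was 37.8 and 259 in VE, against 0 to 143 in the sections. Their mean level was 0.82 and 1.58 in VE, against 0 to 2.97 in the sections, highest in section 15. The VE library of section 7 held Amn, the endocytic partner of cubilin, at a level of 7.71, above every section, and Dab2, an endocytic adaptor, at 5.60. The VE library of section 6 held the endoderm factor Gata6 at 5.12 but listed Amn at 0. Hnf4a, Foxa2, Gata4, Cited1 and Afp were listed at 0 in both VE libraries. Markers of other tissues were present too. The VE library of section 7 held the epiblast genes Pou5f1 at 6.73 and Sox2 at 5.36. That of section 6 listed both at 0 and held Prl3d1, a trophoblast giant cell hormone, at 9.17. Prl3d1 did not pass between VE and sections 6 and 7 (adjusted p = 0.761, limma, n = 4). Summed FPKM of 7 ectoplacental cone markers, Prl3d1 among them, was 576 (section 6) and 55.1 (section 7) in VE. It was 394 and 36.5 in the other libraries of those sections. Summed epiblast FPKM in VE was 208 (section 6) and 235 (section 7), and 644 and 594 in the other libraries of those sections. Summed FPKM of 6 parietal endoderm markers was 138 and 13.9 in the VE libraries, against 14.3 and 8.58. The decidua markers summed to 0 and 4.76. The part of these tissues in the results below was not tested.

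Of the 6 genes, Apom and Apoe passed as higher in the VE libraries than in the other libraries of sections 6 and 7, and Apob is given by its values. Apom stood at levels of 8.48 (section 6) and 9.50 (section 7) in VE, and at 4.13 and 2.84 in the libraries of the sections themselves. Apoe stood at 7.99 and 9.22 in VE and at 4.11 and 4.70 in the sections. Apob stood at 3.55 and 5.53 in VE and at 0.52 and 0.43 in the sections. For each of these genes both VE libraries lay above both section libraries. The share of all genes that lay apart in this way was not counted, so this only describes the values.

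The fitted difference, VE minus sections, was 5.51 ± 1.003 for Apom (SE, n = 4 libraries, adjusted p = 0.0228, limma). Apoe differed by 4.20 ± 0.91 (adjusted p = 0.0337). Apob entered the fit only through the VE libraries, since both section libraries were below an FPKM of 1, so its difference of 4.07 ± 0.87 is a description and is not counted as a call. Across all 6413 genes tested, 0.624% were higher in VE and 56.6% lower, and the median difference was -2.09. Without the library of section 6 or without that of section 7, 0 of the 6 genes passed in limma (1 and 0 at an unadjusted p below 0.05), although the differences of Apom, Apoe and Apob stayed between 3.90 and 6.15. With quantile normalization, which moved the median over all genes to -0.63, 0 passed in limma (3 at an unadjusted p below 0.05), with differences of 6.65, 4.95 and 4.66. With the section number as a replicate block neither Apom (adjusted p = 0.0877) nor Apoe (0.131) passed.

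Apoa1, Ttr and Rbp4 did not share this pattern. The level of Apoa1 was 2.23 in the VE library of section 6 and 7.01 in that of section 7, against 4.71 and 3.43 in the sections. Ttr was listed at 0 and stood at 6.44 in the VE libraries, against 0 and 1.60. The VE libraries thus lay on both sides of the sections for Apoa1, and for Ttr only that of section 7 was high. The differences were 0.55 ± 2.10 for Apoa1 (adjusted p = 0.871, limma, n = 4) and 2.42 ± 2.67 for Ttr (adjusted p = 0.545). Rbp4 was listed at 0 in all 4 libraries and was not tested. Without the VE library of section 6 the differences of Apoa1 and Ttr were 2.94 and 5.64 and passed (adjusted p = 0.00226 and 0.000673). Without that of section 7 the difference of Apoa1 was -1.84 and passed in the other direction (adjusted p = 0.0241).

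**Figure D1:**
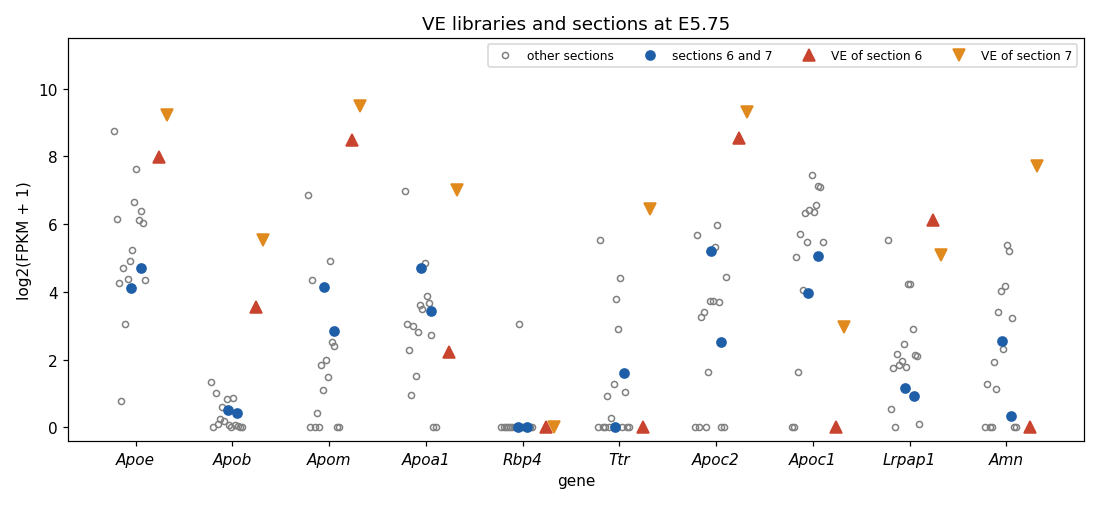
Levels at E5.75, log2(FPKM + 1) on the y axis, for the 6 genes and 4 related ones on the x axis. Triangles are the VE libraries, filled circles the libraries of sections 6 and 7, open circles the 15 other sections, spread sideways for view. Both triangles lie above all circles for Apob, Apom and Apoc2, and the triangles are far apart for Apoa1, Ttr and Amn.

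Against all 17 sections of E5.75, Apob, Apom and Apoe passed. The levels of Apob in the sections ran from 0 (median 0.20) to 1.35, in section 1. Those of Apom ran from 0 (median 1.85) to 6.87, in section 1. Both VE libraries lay above every section for both genes, as they did for 79 of 13618 genes (0.580%). The levels of Apoe in the sections ran from 0.78 in section 4 (median 4.90) to 8.76 in section 1, the only section above the lower VE library.

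The difference between VE and all sections was 4.17 ± 0.52 for Apob (SE, n = 19 libraries, adjusted p = 8.64e-06, limma), 6.94 ± 1.31 for Apom (adjusted p = 0.00077) and 3.42 ± 1.19 for Apoe (adjusted p = 0.0486). Of 11207 genes tested, 1.20% were higher and 14.7% lower, with a median difference of -1.06. Apoa1 and Ttr, with section levels of 0 to 6.97 and 0 to 5.54, differed by 1.62 ± 1.26 (adjusted p = 0.359) and 1.94 ± 1.33 (adjusted p = 0.308). On simulated data cut at 0, as these tables are, this comparison made more false calls than the nominal 5%, which bears on all of its calls here and below. The Apoe call was near the threshold. It was lost with quantile normalization (difference 3.13, adjusted p = 0.111), with scaling to a common sum without Rn45s (3.12, adjusted p = 0.0637), and without the VE library of section 6 (4.03, adjusted p = 0.15) or 7 (2.81, adjusted p = 0.304). It held without sections 1 and 2 (3.72, adjusted p = 0.00945). When detection was added as a covariate only Apob passed, and Apom had a difference of 5.37 (adjusted p = 0.126).

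FPKM is scaled to transcript length, so levels are set beside each other within a library as a description. An annotated transcript of Apob has 13369 bases, against 1013 for Apom to 1186 for Ttr among the other genes. Whether long and short transcripts were covered alike was not tested. In the VE library of section 7 the order was Apom at 722 FPKM, Apoe at 594, Apoa1 at 128, Ttr at 85.6, Apob at 45.2 and Rbp4 at 0. In that of section 6 it was Apom at 355 FPKM, Apoe at 254, Apob at 10.7, Apoa1 at 3.71, and Ttr and Rbp4 at 0. Apom thus led both, at rank 53 of 2147 detected genes and rank 150 of 1496, followed by Apoe at ranks 68 and 200. The SD over both VE libraries was 0.72 for Apom and 0.86 for Apoe around mean levels of 8.99 and 8.61. The means thus lay closer together than either SD. Those SDs include any shift between the libraries, and the difference within each library was not tested. In the sections of E5.75 the order by median level was Apoe (4.90), Apoa1 (3.06), Apom (1.85), Ttr (0.29), Apob (0.20) and Rbp4 (0), with SDs over sections of 1.81, 1.75, 2.05, 1.79, 0.42 and 0.74. Each neighbouring pair in that order differed by less than the larger of its SDs, except Apoe and Apoa1, whose medians lay slightly farther apart than either SD.

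The stretches before the annotated start sites of Apob, Apoe and Apoa1 are shown because Apob and Apoe were higher in both VE libraries and Apoa1 in only that of section 7. Sequences are from RefSeq (GRCm38.p6), 5′ to 3′ on the gene's strand, cut where an annotated GENCODE M21 exon begins. Capitals mark the motif matches found.
Apob, chr12:7977427-7977647, plus strand: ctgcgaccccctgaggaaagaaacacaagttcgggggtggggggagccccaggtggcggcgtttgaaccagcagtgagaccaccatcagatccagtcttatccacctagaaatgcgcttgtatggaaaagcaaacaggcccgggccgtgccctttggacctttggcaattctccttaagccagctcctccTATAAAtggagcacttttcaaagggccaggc
Apoe, chr7:19699189-19699438, minus strand: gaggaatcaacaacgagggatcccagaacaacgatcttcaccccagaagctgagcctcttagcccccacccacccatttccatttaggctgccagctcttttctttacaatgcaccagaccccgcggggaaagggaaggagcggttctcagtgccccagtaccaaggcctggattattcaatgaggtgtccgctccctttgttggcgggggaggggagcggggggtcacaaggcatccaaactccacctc
Apoa1, chr9:46228380-46228579, plus strand: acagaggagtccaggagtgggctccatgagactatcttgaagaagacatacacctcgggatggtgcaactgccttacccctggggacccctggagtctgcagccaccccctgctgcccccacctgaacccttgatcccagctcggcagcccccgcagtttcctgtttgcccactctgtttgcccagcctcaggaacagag
The 250 bases before each RefSeq start site of Apoe, Apob, Apom, Apoa1 and Rbp4 were searched on both strands. No stretch before Ttr was searched. The letters were AGATAA for GATA factors, TATAAA for the core promoter element, GTTAAT for HNF1 and CAAAGTCCA for HNF4. They were also TGTTTAC or TATTTAC for FOXA, CACGTG for E-box factors and AGGTCA for nuclear receptors. No 2 matches overlapped in the stretches shown. Apob held TATAAA starting 60 bases before its RefSeq start site, as 12.4% of 32851 promoters hold that motif in the same window. No match was found in the Apoe stretch shown or before Apoa1 and Apom. RefSeq lists 3 start sites for Apoe, and the stretches before the other two lie within the annotated gene. Before the second, TATAAA was matched on both strands, at 96 and 100 bases, in overlapping letters, and before the third GTTAAT was matched on the opposite strand at 172 bases. Of 2 start sites of Rbp4, the first had TGTTTAC on the opposite strand at 241 bases and the second TATAAA at 28 bases. AGATAA was held by 9.99% of promoters, GTTAAT by 6.43%, CAAAGTCCA by 0.384%, the FOXA letters by 5.76%, CACGTG by 6.02% and AGGTCA by 14%. A match describes letters in this window only.

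**Figure D2:**
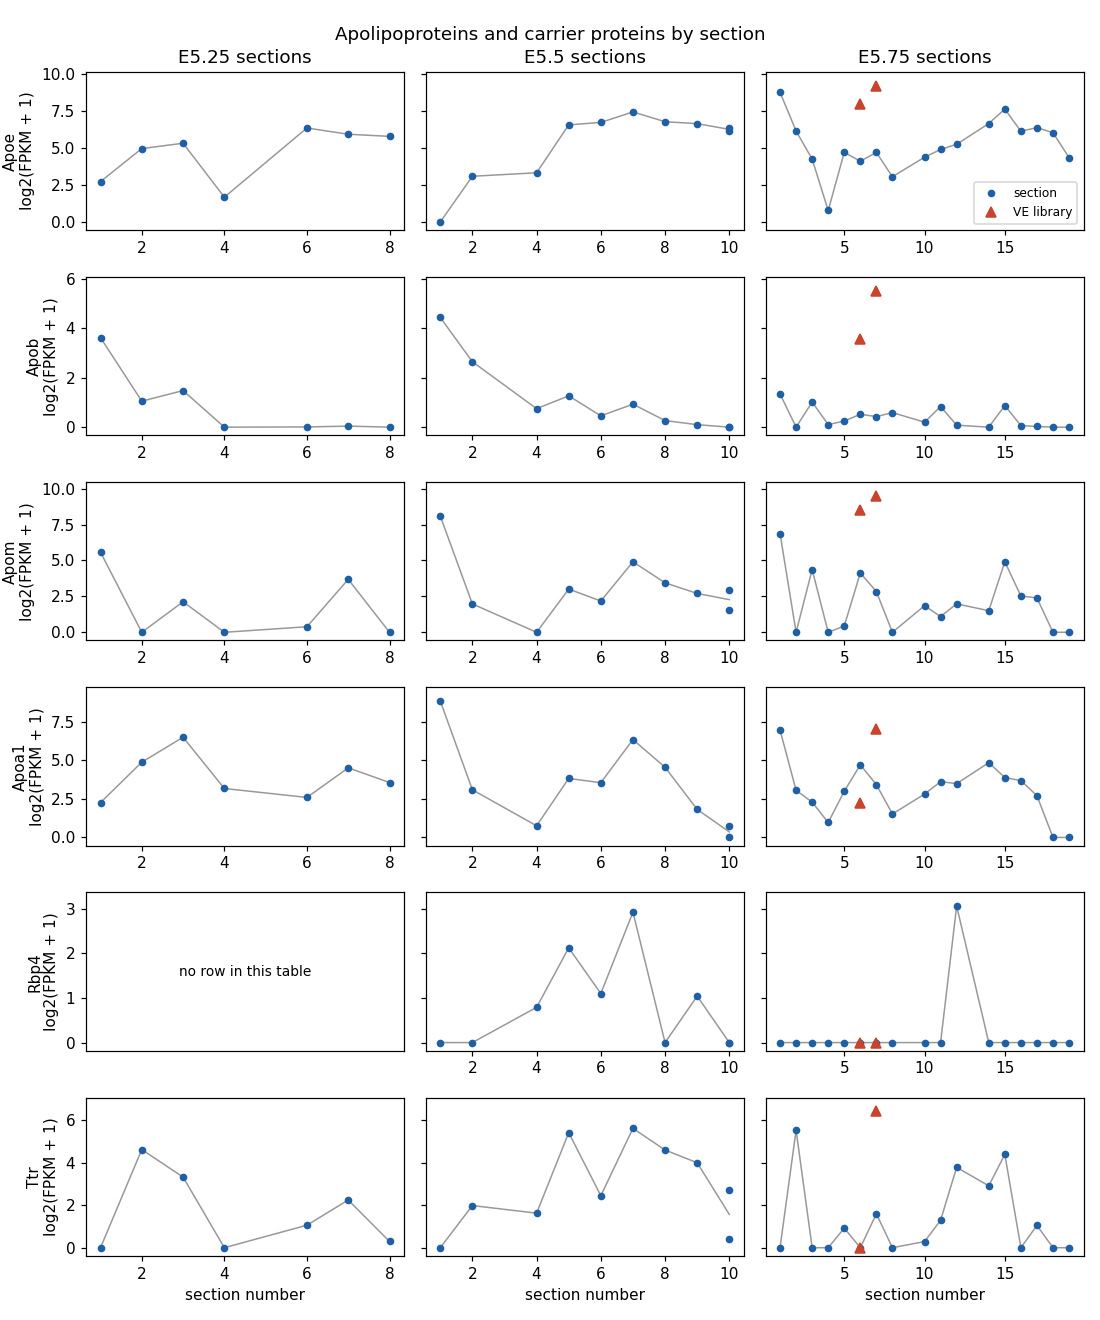
Levels of the 6 genes, log2(FPKM + 1) on the y axes, by section number on the x axes, for E5.25, E5.5 and E5.75. Circles are sections, lines join section means (both columns of section 10 at E5.5 are drawn), and triangles are the VE libraries. Apoe rises and Apob falls along E5.5, and Apob, Apom and Apoa1 are highest in section 1 at E5.5 and in the sections of E5.75.

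The next comparison asked how the 6 genes varied with section number at each stage. At E5.5 Apoe passed as rising from low to high section number. The fall of Apob is given by its values, and the other 4 did not pass. Apoe was listed at 0 in section 1, stood at levels of 3.09 and 3.33 in sections 2 and 4, and at 6.17 to 7.44 from section 5 on (median over sections 6.56). The level of Apob was 4.44 in section 1, 2.65 in section 2 and at most 1.27 from section 4 on (median 0.75). Sections 1 and 2, which had the least Apoe, held the most Apob.

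The fitted change from first to last section at E5.5 was 6.05 ± 1.28 for Apoe (SE, n = 9 section numbers, adjusted p = 0.00332, limma). Apob entered the fit through sections 1, 2 and 5, the only ones where it reached an FPKM of 1. Its change of -3.74 ± 0.80 is thus a description and is not counted as a call. Across all 8251 genes tested, 28.3% rose and 2.61% fell, with a median change of 1.22. On simulated data this fit too made more false calls than the nominal 5%. Detection moved with both genes. Over 9 sections the number of detected genes correlated with the level of Apoe at r = 0.949 and with that of Apob at r = -0.931, and without section 1 at 0.866 and -0.805. With detected genes as a covariate 0 of 6 passed in limma (0 at an unadjusted p below 0.05), and the change of Apoe was -0.93 (adjusted p = 0.934). Without sections 1 and 2, 0 of 5 passed in limma (0 at an unadjusted p below 0.05). The change of Apoe was then 2.89 (adjusted p = 0.243), and Apob had too few sections at an FPKM of 1 to be tested.

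Markers of other tissues also moved along E5.5. Like Apoe, all 4 parietal endoderm markers tested rose, with Sparc, a basement membrane protein, at a change of 5.62 ± 1.14 (adjusted p = 0.00261, limma, n = 9) and Srgn at 5.19 ± 1.11. Of all genes 28.3% rose, and with quantile normalization 2 of these 4 markers still passed, Sparc and Srgn. The summed FPKM of that list was 0 in section 1, 5.38 and 5.31 in sections 2 and 4, and 44.9 to 147 from section 5 on. Of 6 ectoplacental cone markers tested 3 rose, beside the same 28.3%, among them Phlda2 (8.15 ± 1.007) and Hand1 (5.30 ± 0.95). With quantile normalization these 3 still passed. The sum of the ectoplacental cone list was 4.72 to 9.48 in sections 1, 2 and 4 and 15.4 to 396 from section 5 on. Section 1, where Apob, Apom and Apoa1 were highest, had the highest sum of decidua markers, 139 against 0.222 to 59.2 elsewhere, from Des at a level of 6.74 and Hoxa10 at 5.08. Of 4 decidua markers tested along the axis, Hoxa10 fell (-3.28 ± 1.04, adjusted p = 0.0265, limma) and Cryab rose (4.475 ± 0.95, adjusted p = 0.00336). The other 2 did not pass, and 3 of 5 decidua markers in the table were listed at 0 in section 1. That section also had the highest sum of distal and anterior visceral endoderm markers, 173 against 0.528 to 25.4, with Lhx1, a factor of that tissue, at 7.32 and falling along the axis (-6.28 ± 1.19, adjusted p = 0.00187, limma). The part of these tissues in the levels of the 6 genes was not tested.

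Apom and Apoa1 shared a profile at E5.5, with a high section 1 and a smaller peak at section 7. Apom stood at a level of 8.09 in section 1 and 4.91 in section 7, with a low of 0 in section 4 (median 2.70). Apoa1 stood at 8.86 in section 1 and 6.35 in section 7, and at 0.76 in section 4 and 0.72 and 0 in the columns of section 10 (median 3.55). Their levels correlated at r = 0.909 over 9 sections, and at 0.802 without section 1. These sections share an embryo and the differences in detection above. Their linear changes were -1.91 ± 1.74 (adjusted p = 0.401, limma) and -3.85 ± 1.87 (adjusted p = 0.122). The change of Apoa1 passed without section 4 (-4.77, adjusted p = 0.0392) and with the second column of section 10 taken as section 11 (-4.82, adjusted p = 0.0436), which its source name gives.

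The carriers Rbp4 and Ttr peaked at section 7 of E5.5 as well. Rbp4 was highest there at a level of 2.92, stood at 2.12 in section 5, and was listed at 0 in sections 1, 2, 8 and 10 (median 0.79). Ttr stood at 5.63 in section 7 and 5.42 in section 5, and was listed at 0 in section 1 (median 2.45). Their changes along the axis, 0.49 ± 0.93 and 2.69 ± 1.46, did not pass (adjusted p = 0.7 and 0.161, limma), and that of Ttr passed without section 10 (4.79, adjusted p = 0.0265). Section 7 also had the highest summed FPKM of the visceral endoderm markers at E5.5, 124, followed by section 1 with 114, against 5.10 to 65.7 elsewhere. The part of visceral endoderm in these peaks was not tested.

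At E5.75 none of the 5 genes tested passed as a straight line, where 21.0% of 11149 genes did and 18.9% rose (0 of 5 also at an unadjusted p below 0.05, limma). Rbp4 was above 0 in section 12 only, at a level of 3.06, and was not tested. Linear changes were 1.18 ± 1.19 for Apoe (adjusted p = 0.493), -1.92 ± 1.13 for Apoa1 (0.223), -1.54 ± 1.32 for Apom (0.416), -0.61 ± 0.38 for Apob (0.248) and -0.04 ± 1.20 for Ttr (0.984). The median change of all genes was 0.80.

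In a test of any change along the axis, a natural spline with 3 degrees of freedom, the genes passing were Apoe (adjusted p = 0.00676, limma F test, n = 17 sections) and Apoa1 (adjusted p = 0.0164). With 2 of 5 passing beside 31.6% of all genes, the share is near the background. Apoe went from a level of 8.76 in section 1 to 0.78 in section 4, and stood at 4.70 in section 5, at 3.06 in section 8, at 4.90 in section 11, at 7.62 in section 15 and at 4.35 in section 19. Apoa1 stood at 6.97 in section 1, 0.97 in section 4, 4.71 in section 6, 4.85 in section 14 and 0 in sections 18 and 19. Apoe passed in every fit without a single section (adjusted p = 0.00114 to 0.0211). Apoa1 did not pass without section 18 (adjusted p = 0.0673) or section 19 (0.103), nor with detected genes as a covariate (0.0568). Without section 2, Apom and Ttr passed too (adjusted p = 0.0348 and 0.0307). Without sections 1 and 2, Apoe passed as a straight line, with a change of 3.65 (adjusted p = 0.0153).

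High and low sections at E5.75 were partly shared between the genes. Section 1 was the highest section for Apoe, Apob, Apom and Apoa1, while Ttr was listed at 0 there and was highest in section 2, at a level of 5.54. Section 15 was second for Apoe (7.62), Apom (4.90) and Ttr (4.40), and stood at 0.88 for Apob and 3.89 for Apoa1. That section had the highest summed visceral endoderm marker FPKM of all sections, 143, with Amn at 5.39, Cubn at 3.01 and Hnf4a at 3.09. Section 1 had a sum of 58.2, which came from Gata4 at a level of 5.64 and Dab2 at 3.38, with Amn listed at 0. In sections 18 and 19 Apom and Apoa1 were listed at 0 and the marker sum was 3.68 and 0, while Apoe stood at 6.03 and 4.35. The part of visceral endoderm in these levels was not tested. Levels of Apom correlated with those of Apoa1 at r = 0.732 over 17 sections (0.585 without section 1) and with those of Apob at 0.73 (0.578).

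At E5.25 none of the 5 genes passed along the axis, beside 0.406% of 7148 genes (1 of 5, Apob, at an unadjusted p below 0.05, limma). Apoe was above 0 in all 7 sections, with levels from 1.68 in section 4 to 6.35 in section 6 (median 5.32). Apoa1 was also above 0 in all 7, from 2.26 in section 1 to 6.50 in section 3 (median 3.57). Apob was highest in section 1 at 3.63, followed by section 3 at 1.48 and section 2 at 1.05, and the other 4 lay at 0 to 0.04 (median 0.04). Apom stood at 5.57 in section 1 and 3.68 in section 7 and was listed at 0 in sections 2, 4 and 8 (median 0.39). Ttr stood at 4.63 in section 2 and 3.33 in section 3 and was listed at 0 in sections 1 and 4 (median 1.06). Changes from first to last section were 2.71 ± 1.78 for Apoe (adjusted p = 0.268), -2.85 ± 1.02 for Apob (0.0711), -2.02 ± 1.74 for Apom (0.407), -0.31 ± 1.81 for Apoa1 (0.917) and -1.26 ± 1.62 for Ttr (0.594). The summed visceral endoderm marker FPKM was highest in section 1, at 78.2, against 13 to 50.6 in the others. The stages were normalized separately, so slopes were not tested between them. In each, Apob was highest in section 1.

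Other apolipoproteins were read from a list of 23, which includes Apoe, Apob, Apom and Apoa1. Apoc2, the activator of lipoprotein lipase, stood at levels of 8.53 and 9.30 in the VE libraries, against 5.22 and 2.52 in sections 6 and 7 and 0 to 5.98 in all sections. It was higher in VE than in all sections (difference 6.05 ± 1.39, adjusted p = 0.00423, limma, n = 19) but did not pass against sections 6 and 7 (5.04 ± 1.35, adjusted p = 0.0534, n = 4). Apoc1, an inhibitor of lipoprotein clearance, stood at 0 and 2.96 in VE, against 3.96 and 5.05 (difference -3.02 ± 1.34, adjusted p = 0.157). It rose along the axis at E5.5 (5.60 ± 1.34, adjusted p = 0.00609, n = 9; 0.0726 with quantile normalization) and at E5.75 (5.54 ± 1.02, adjusted p = 0.000639, n = 17). Of 12 list members in the E5.75 table, 11 were tested against all sections: 4 were higher (Apob, Apom, Apoc2, Apoe), none was lower, and the median difference was -0.11, beside 1.20% higher, 14.7% lower and a median of -1.06 over all genes. Against sections 6 and 7 the calls were those of Apom and Apoe, with Apob set aside as above. None of the 7 tested was lower. In that comparison 0.624% of all genes were higher and 56.6% lower.

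**Figure D3:**
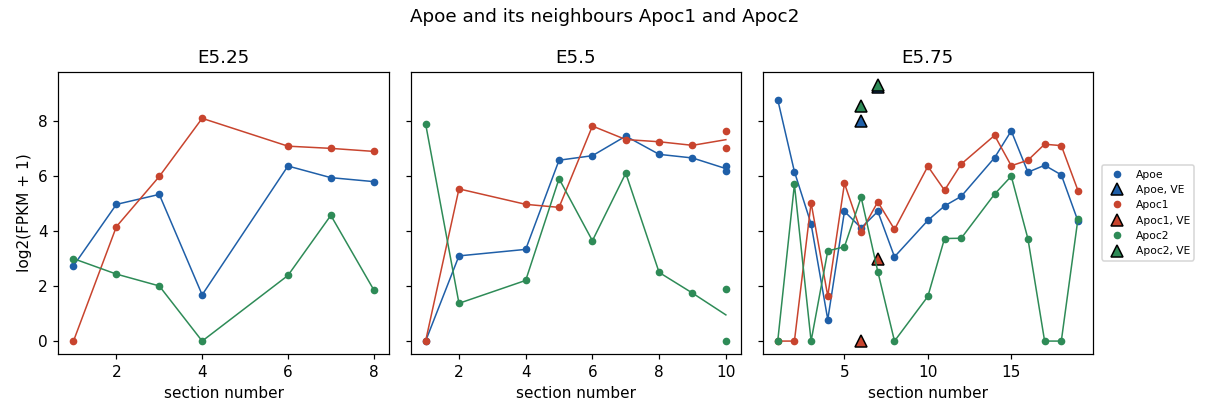
Levels of Apoe, Apoc1 and Apoc2, log2(FPKM + 1) on the y axis, by section number on the x axes at the 3 stages; triangles are the VE libraries. In VE, Apoe and Apoc2 are at 7.99 to 9.30 and Apoc1 at 0 and 2.96. Apoc1 is the highest of the 3 in most sections of E5.75, among them sections 10 to 12 and 16 to 19.

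Apoe lies on chromosome 7 (mm10) from 19696109 to 19699188 on the minus strand, in a cluster with Apoc1, 3449 bases away, and Apoc2, 18168 bases away. Over the 19 columns of E5.75, levels of Apoe correlated with those of Apoc2 at r = 0.388 and of Apoc1 at r = -0.143. Gm44805 overlaps Apoc2 on the same strand, so reads there cannot be assigned with certainty. Apoa1 lies on chromosome 9 from 46228580 to 46230466 on the plus strand, near Apoc3 (2467 bases) and Apoa4 (10230 bases). Apoc3 was listed at 0 in both VE libraries, and Apoa4 stood there at 0 and 1.75. Apom lies on chromosome 17 from 35128997 to 35132050 on the minus strand. Its neighbour Bag6, a chaperone gene 3128 bases away on the other strand, stood at 9.03 and 6.10 in VE and 2.95 and 3.46 in sections 6 and 7. Apob lies on chromosome 12 from 7977648 to 8016835 on the plus strand, Rbp4 on chromosome 19 from 38116629 to 38125281 on the minus strand, and Ttr on chromosome 18 from 20665280 to 20674321 on the plus strand.

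None of the genes that assemble and export lipoproteins passed as higher in VE than in sections 6 and 7. Of 17 such genes, 9 could be tested against sections 6 and 7: none was higher, 4 were lower and 5 did not pass, with a median difference of -1.68. With 56.6% of all genes lower and a median of -2.09, that share is not above the background. A gene could enter this fit through the libraries of sections 6 and 7 alone, as Apob did through VE. Only 1496 and 2147 genes reached an FPKM of 1 in VE. The lower calls here and below in that comparison may rest on such entry and are descriptions. Those lower were Sar1b, a GTPase of the coat that carries lipoproteins out of the endoplasmic reticulum (-2.89 ± 0.23, adjusted p = 0.00475, limma), Sec24d and Mia3, which act at the same exit sites (-1.68 ± 0.18 and -1.97 ± 0.30), and Dgat1, a triglyceride synthase (-1.88 ± 0.33). Mttp, which loads lipid onto apolipoprotein B, was listed at 0 in both VE libraries and stood at 0 and 0.32 in sections 6 and 7. With quantile normalization none of the 6413 genes passed against sections 6 and 7 in limma (3090 at an unadjusted p below 0.05), so every call named here and below for that comparison was lost, and the difference of Mia3 turned to 0.43. Against all sections 1 of 16 was higher, Soat2, which esterifies cholesterol (4.48 ± 0.91, adjusted p = 0.00153, limma), and 1 lower, Mia3 (-2.14 ± 0.72, but 0.12 and not passing with quantile normalization). Over all genes 1.20% were higher and 14.7% lower. Along the axis 4 of 13 rose at E5.5, near the 28.3% of all genes, and 6 of 16 at E5.75, beside 18.9%. None fell, and none of 10 passed at E5.25, beside 0.406%. With quantile normalization 2 of those 4 and 2 of those 6 still passed.

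Among 20 lipoprotein receptor and remodelling genes the receptor chaperone Lrpap1 was higher in VE and the lipolysis-stimulated receptor Lsr lower. Lrpap1 stood at levels of 6.11 and 5.08 in VE and 1.17 and 0.93 in sections 6 and 7. It met the filter only through the VE libraries, since the library of section 7 was below an FPKM of 1. Its difference of 4.55 ± 0.67 (SE, n = 4 libraries) is thus a description and is not counted as a call. Lsr differed by -3.22 ± 0.74 (adjusted p = 0.0381). The other 3 of 5 tested did not pass, and the median difference of the 5 was -0.28, beside -2.09 over all genes tested. Of all genes tested in that comparison 0.624% were higher and 56.6% lower. With quantile normalization neither passed (adjusted p = 0.0586 and 0.163). Against all sections Lrpap1 was again higher and Lsr lower, beside 1.20% and 14.7% of all genes, and 11 of 13 did not pass. Lsr did not pass with quantile normalization (adjusted p = 0.061, limma). Along the axis 2 of 7 rose at E5.5, Lrpap1 (3.76 ± 0.95, adjusted p = 0.00818, limma) and Lsr (3.37 ± 0.90), while the lipase Lpl fell by 4.13 ± 1.36 (adjusted p = 0.0306). That share is near the 28.3% of all genes that rose, and of these 3 only Lpl passed with quantile normalization. At E5.75, 3 of 13 rose, beside 18.9% of all genes, the phospholipid transfer protein Pltp (2.27 ± 0.59), Lsr (2.93 ± 0.78) and the high-density lipoprotein receptor Scarb1 (2.35 ± 0.76), of which Pltp passed with quantile normalization.

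The genes around Rbp4 and Ttr, 27 for retinoid and thyroid hormone transport, had 4 members testable against sections 6 and 7. None was higher and 2 were lower, the retinoic acid-binding protein Crabp2 (-4.02 ± 0.78, adjusted p = 0.0259, limma) and the retinoic acid receptor Rarg (-1.85 ± 0.10, adjusted p = 0.00471), with a median of -1.53. That share is near the 56.6% of all genes that were lower, with a median of -2.09. Against all sections 0 of 10 passed, beside 15.9% of all genes. Along the axis 0 of 5 passed at E5.25, beside 0.406%, 0 of 6 at E5.5, beside 30.9%, and 0 of 10 at E5.75, beside 21.0%. Of 38 other secreted plasma proteins, 11 had a row at E5.75, and none of the 5 tested against all sections passed, beside 15.9%. Afp, the alpha-fetoprotein of later visceral endoderm, was listed at 0 in both VE libraries and reached 1.48 in section 15. Of 13 genes of cholesterol export and its regulators, 1 of 3 was lower against sections 6 and 7 (Nr1h2, a liver X receptor, -2.67 ± 0.16), beside 56.6%. Against all sections 0 of 8 passed, beside 15.9%. Of 22 visceral endoderm regulators, 1 of 4 was lower against sections 6 and 7 (Otx2, -4.32 ± 0.36), beside 56.6%, and 0 of 14 passed against all sections, beside 15.9%. Along the axis none of these regulators passed among 6 at E5.25, beside 0.406%. At E5.5, 2 of 12 fell, Creb3l3 (-4.34 ± 1.09), a liver and gut lipid regulator, and Foxa1 (-2.98 ± 1.05), beside 2.61% of all genes, and none rose. At E5.75, 2 of 14 rose, Eomes (4.09 ± 1.05) and Nr2f2 (2.76 ± 0.74), beside 18.9%, and 1 fell, Otx2 (-5.38 ± 1.02), beside 2.07%. The rises of Eomes and Nr2f2 did not pass with quantile normalization. Otx2 is also one of the 8 epiblast markers, of which 6 fell along E5.75, beside 2.07% of all genes. Eomes is also one of the 7 extraembryonic ectoderm markers, of which 3 rose, beside 18.9%. The part of those tissues in the values of Otx2 and Eomes was not tested, here or against sections 6 and 7.

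**Figure D4:**
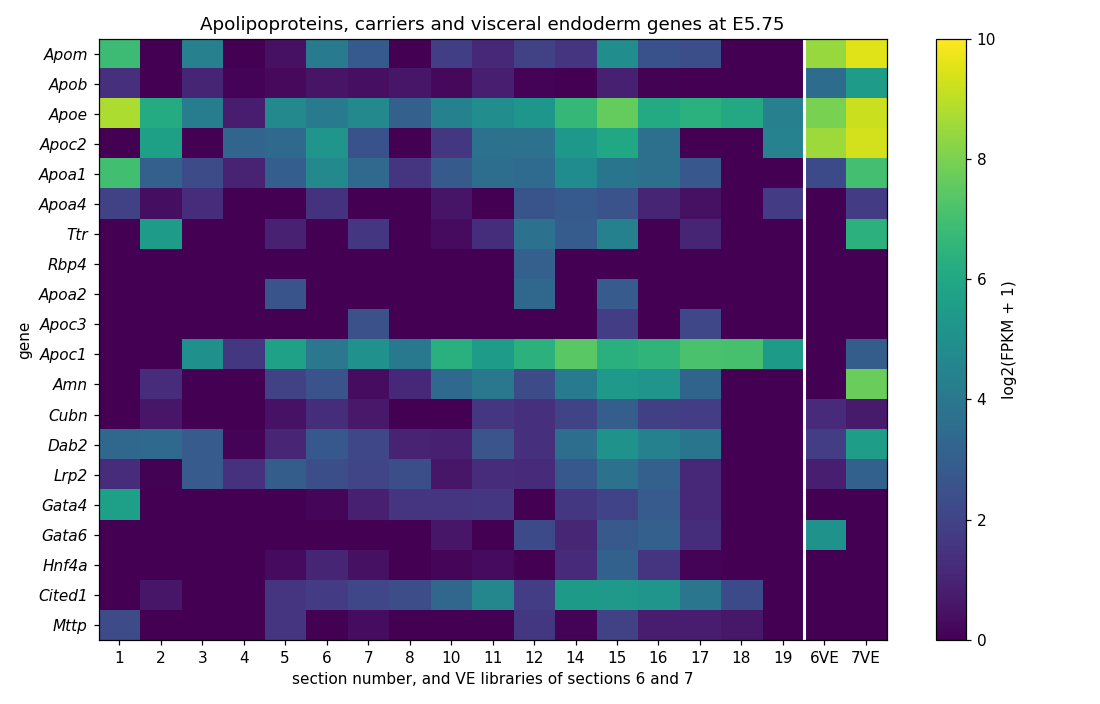
Levels at E5.75, log2(FPKM + 1) as colour, of apolipoproteins, carriers, visceral endoderm markers and Mttp (rows) in 17 sections and, right of the white line, the VE libraries of sections 6 and 7 (columns). Apom and Apoc2 are brightest in the VE columns, Apoe in the VE library of section 7 and section 1, Amn in the VE library of section 7 and then sections 15 and 16, and Cubn, Dab2, Hnf4a and Cited1 are brightest in VE or in sections 14 to 16.

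The genes most like each member over the 19 columns of E5.75 were taken from 9469 genes that reached an FPKM of 1 in at least 4 columns. For Apoe they were Rrbp1, a ribosome-binding protein of the endoplasmic reticulum (r = 0.86), Canx, a chaperone there (0.845), and Lrpap1 (0.827). For Apob they were Tln2 (0.90), Pcm1 (0.889) and Ppp6r1 (0.865), and for Apom Tln2 (0.855), Apob (0.847) and Pcm1 (0.811). For Apoa1 they were Myo6 (0.798), Foxp4 (0.773) and Mll5 (0.761), and for Ttr Tmprss2 (0.844), Rfx5 (0.808) and Zbtb7a (0.797). Rbp4 was above 0 too rarely. These columns share an embryo and include both VE libraries, which set many of these values: Tln2 stood at 3.22 and 5.04 in VE and at 1.29 and 1.07 in sections 6 and 7.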

How the data were processed

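Per the submitters' processing notes, the tools were TopHat2 2.0.4 and Cufflinks 2.0.2 and the build was mm10, with no roles stated. The annotation and normalization are not given in the sources used here. Each stage has a table deposited by the authors with FPKM values on a log2 scale, read here as log2(FPKM + 1) because the values start at 0. They hold no counts, so depth and its precision are unknown. At E5.5, 7 of 9 section values join parts A and B in a way not stated, and both columns of section 10 were averaged.

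Fits used limma 3.58.1 in R 4.3.3 (eBayes, trend, 2-sided), with Benjamini-Hochberg adjustment over all genes that reached an FPKM of 1 in 2 or more libraries compared. Section number was rescaled to 0 at the first and 1 at the last section, and VE libraries were left out of axis fits. The rule for names was all 6 genes, up to 4 per list with the smallest p, the 3 most correlated with each member, and markers by value. Other genes, such as Bag6 and Mttp, were named after their values were seen. Neighbours within 100 kb come from GENCODE M21 (mm10).

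The members and lists were chosen with earlier results of these data known. Fits were tested on simulated data: with values cut at 0, as in these tables, VE against all sections and the axis fits of E5.5 and E5.75 made more false calls than the nominal 5%. Figures used matplotlib 3.10.9 in Python 3.11.15. Nothing says that sections are separate embryos, so p-values measure the spread between these sections, which may be technical. The closing section gives the alternatives tried. Some lipoprotein receptor genes are not reported here and were left out of the list counts.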

Additional observations from a re-analysis of the deposited data

Results flagged for a closer look

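Apob in section 1 of E5.25 stood at a level of 3.63 on the log2(FPKM + 1) scale, far from the next section at 1.48. Its gap to the next section was 0.591 of the range over the 7 sections, above the critical value of 0.568. Of 11 combinations of gene and stage tested in this way, all those with a row at E5.25 and E5.5, this was the only one set apart; the 17 sections of E5.75 were too many for this rule and were not tested, and chance sets apart about 1 in 20.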

How the results depend on the processing

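Without read counts, what depth limits is unknown, and levels near 0 are the least certain. The alternatives were pseudocounts of 0.1 and 5, other filters, quantile normalization, a common sum without Rn45s, eBayes without trend, detected genes as a covariate, other choices of sections, and leaving out single libraries. Leaving out sections 1 and 2 in the comparison of VE with all sections and both scalings of the other listed genes were chosen after seeing the data. The cause of each change below was not tested.

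The numbers of the 6 genes that passed moved as follows. At E5.5, 2 passed along the axis with Apob included, and 0 with detected genes as a covariate or without sections 1 and 2. At E5.75, 0 passed as a line, and 1 without sections 1 and 2; 2 passed for any shape, 1 with detected genes as a covariate, and 1 (without section 18 or 19) to 4 (without section 2) with single sections left out. For VE against sections 6 and 7, 3 passed with Apob included, 0 with quantile normalization, and 0 (without the library of section 6 or 7) to 4 (without the VE library of section 6) with single libraries left out; a lone library is there assumed to vary like the other group. With the section number as a replicate block it was 1, Apob, which entered only through the VE libraries. The deviations of the section 6 libraries correlated at r = 0.000773 over 6413 genes, which with 2 pairs does not settle whether they pair. For VE against all sections 3 passed, and 1 with detected genes as a covariate.

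Changes of sign, as differences on the log2 scale, all concerned differences that had not passed, apart from Apoe at E5.5. With detected genes as a covariate the axis change was -1.97 for Apoe at E5.25, at E5.5 -0.93 for Apoe, 3.93 for Apom, -2.94 for Rbp4 and -2.21 for Ttr, and 0.66 for Ttr at E5.75. Without sections 1 to 4 of E5.25 it was -1.98 for Apoe and 3.40 for Apoa1. Without sections 1 and 2 it was 2.40 for Apom, -1.81 for Rbp4 and -0.27 for Ttr at E5.5 and 1.09 for Ttr at E5.75. With the second column of section 10 as section 11 it was -0.0052 for Rbp4, and with a pseudocount of 0.1 it was 0.33 for Ttr at E5.75. With single sections left out, E5.25 changes ran from -3.72 to 0.88 for Apom, -2.13 to 0.44 for Apoa1 and -3.52 to 0.19 for Ttr. E5.5 changes ran from -3.19 to 1.88 for Apom and -0.12 to 1.35 for Rbp4, and E5.75 changes of Ttr from -0.62 to 1.25. With single VE libraries left out, the difference of Apoa1 ran from -1.84 to 2.94 against sections 6 and 7, and against all sections from -0.77 to 4.01, with Ttr from -1.28 to 5.15.

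Over all genes, quantile normalization moved the share of passing genes that were higher from 91.6% to 72.3% at E5.5, from 90.1% to 62.8% at E5.75 and from 7.52% to 37.9% in VE against all sections. The common sum without Rn45s moved them to 85.4%, 85.5% and 5.92%. The number of all genes passing ran from 0 to 1006 over the alternatives at E5.25 (29 as reported), 0 to 3253 at E5.5 (2547), 624 to 2785 (2339) and 531 to 4221 (3521) for the line and the curve at E5.75, 0 to 5624 for VE against sections 6 and 7 (3671), and 449 to 3289 for VE against all sections (1782).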

Other observations

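Some other carrier and plasma protein genes, picked after their values were seen, were high in section 1 of a stage and rare elsewhere. Rbp7, a retinoid-binding protein, stood at a level of 7.59 on the log2(FPKM + 1) scale in section 1 of E5.25 and at 0 in the other 6 sections. Serpina1c, a protease inhibitor of the liver, was highest in section 1 of E5.5, at a level of 5.02, and above 0 in 2 of 10 columns. Serpinf2, an inhibitor of plasmin, was highest in section 1 of E5.75, at 3.88, and above 0 in 7 of 19 columns. No test was made of these values.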
